A study of Mus musculus with 17 samples.

Results

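The transcription factors that mark and specify the layers of the cerebral cortex were followed here across 17 expression arrays of cells sorted from the cortex of mouse embryos. The 9 genes, of 18193 with a probe set of their own, were Fezf2, Bcl11b, Tbr1 and Foxp2, taken as deep-layer factors, Cux1, Cux2, Pou3f2 and Pou3f3, taken as upper-layer factors, and Mef2c. Every probe set annotated to 1 of these symbols and to no other was used, which gave 34 of the 45101 probe sets on the array: 12 for the deep-layer factors, 17 for the upper-layer factors and 5 for Mef2c. Another 1 probe set, annotated to Pou3f3 together with a second gene, was left out.

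All cells came from the cortex of hGFAP eGFP embryos, which carry enhanced green fluorescent protein (GFP) under the human GFAP promoter, active in radial glia, and all were isolated by fluorescence-activated sorting. At embryonic day 14 (E14) cells positive for Prominin, a surface protein of the apical membrane encoded by Prom1, were sorted as GFP-high (n = 4 arrays) or GFP-low (n = 3). Further E14 cells, 3 arrays of GFP-high and 3 of GFP-low, have no Prominin gate named in their labels and are called ungated below. At E18 the cells were GFP-positive and Prominin-positive (n = 4, replicates 2 to 5). No genotype other than the reporter, no treatment and no strain is given in the labels, and they do not say whether the arrays of a group came from separate litters or pooled embryos, and the p-values below therefore reflect no more than array-to-array spread, which may be technical.

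In the developing cortex radial glia lining the ventricle divide to produce neurons directly or through basal progenitors, and deep-layer neurons are born before upper-layer neurons. Fezf2 and Bcl11b (also known as Ctip2) act in the specification of subcortically projecting neurons of layer V, Tbr1 in that of corticothalamic neurons of layer VI, and Foxp2 marks deep-layer neurons. Cux1 and Cux2 are homeodomain proteins of upper-layer neurons and their progenitors, Pou3f2 (Brn2) and Pou3f3 (Brn1) are POU-domain proteins required for the production of upper-layer neurons, and Mef2c is a MADS-box factor of differentiating cortical neurons.

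The sequences just upstream of an annotated transcript start are given for the pair of deep-layer and the pair of upper-layer genes on which the account below turns: Fezf2 and Tbr1, which differed in how they changed with age, and Cux2 and Pou3f2, which were both higher at E18. The windows are the 250 bases before the start, 5′ to 3′ on the gene's strand, from RefSeq on build GRCm38.p6, and capitals mark matches to the motifs searched.
Fezf2, chr14:12345866-12346115, minus strand: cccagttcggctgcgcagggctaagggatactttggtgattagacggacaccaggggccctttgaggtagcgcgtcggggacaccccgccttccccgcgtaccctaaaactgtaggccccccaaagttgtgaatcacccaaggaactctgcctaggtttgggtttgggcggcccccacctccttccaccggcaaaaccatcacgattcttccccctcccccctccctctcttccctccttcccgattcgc
Tbr1, chr2:61804203-61804452, plus strand: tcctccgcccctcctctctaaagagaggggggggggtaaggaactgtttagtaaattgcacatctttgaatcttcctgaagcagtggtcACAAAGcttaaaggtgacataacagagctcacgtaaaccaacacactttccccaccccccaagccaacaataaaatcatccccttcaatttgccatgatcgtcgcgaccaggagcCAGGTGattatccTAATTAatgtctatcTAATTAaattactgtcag
Cux2, chr5:122049852-122050101, minus strand: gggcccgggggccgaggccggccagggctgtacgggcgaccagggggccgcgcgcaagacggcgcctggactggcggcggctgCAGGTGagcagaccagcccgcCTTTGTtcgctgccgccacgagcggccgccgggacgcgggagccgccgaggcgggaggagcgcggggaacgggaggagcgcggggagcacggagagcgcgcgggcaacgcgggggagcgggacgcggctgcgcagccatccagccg
Pou3f2, chr4:22488367-22488616, minus strand: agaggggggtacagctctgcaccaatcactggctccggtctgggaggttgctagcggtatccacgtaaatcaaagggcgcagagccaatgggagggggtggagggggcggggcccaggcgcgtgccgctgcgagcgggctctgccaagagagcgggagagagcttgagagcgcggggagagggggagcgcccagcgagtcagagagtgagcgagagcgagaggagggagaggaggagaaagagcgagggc

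A window was matched for 8 of the 9 genes. The search covered both strands for CANNTG (the E-box, read by basic helix-loop-helix factors such as the neurogenins), TAATTA (a paired homeobox core), ATGCAAAT (the POU octamer), AGGTGTGA (a T-box site) and ACAAAG (the SOX core). They were found in 66.2%, 4.8%, 1.6%, 1.1% and 16.5% of 32851 such windows of 27025 genes. The Tbr1 window held 1 E-box, CAGGTG, 2 copies of TAATTA within 33 bases of the start, and 1 ACAAAG. The printed Cux2 window held the same E-box letters and CTTTGT, the reverse complement of the SOX core, in sequence of 80.0% G and C against a median of 52.4% over all windows. In the Fezf2 and Pou3f2 windows, and in those of Bcl11b, Cux1 and Pou3f3, none of the 5 motifs was found, which says only that these letters are not in this stretch. No motif matched overlaps another.

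The deposited values are 1 linear intensity per probe set. Levels below are log2 of the intensity plus 16, quantile normalised across the arrays. Differences are on the same scale, which understates the change of dim probe sets. A level was taken to be above background when a group mean exceeded 6.0, the highest group value of the 90th percentile over 25 probe sets of 15 genes that the cortex should lack. By that measure 30 of the 34 probe sets were above background in at least 1 group; Foxp2 1422014_at and 1441365_at and Cux1 1425612_at and 1437686_x_at were not. The probe sets of a gene can read different transcript ends, so levels are compared between groups within a probe set and not between probe sets. The log2 difference between the 3′ and the 5′ Gapdh control compares the ends of a transcript and is used as a measure of RNA integrity. It ran from 0.54 to 2.30 in Prominin-selected cells at E14, from -0.21 to 1.00 at E18 and from -0.25 to 0.18 in ungated cells. What set the groups apart on this measure was not tested. All Prominin-selected samples, and ungated GFP-high replicate 1, were labelled with MessageAmp. The remaining 5 ungated arrays were labelled with an Affymetrix reagent. Other control probe sets differed between the ages among the Prominin-selected arrays. The intensity of the 18S control was 2110 to 6147 at E14 and 569 to 910 at E18. That of the Dap control was 4145 on E14 GFP-high replicate 1 and 0.63 to 21.6 on the other selected E14 arrays. At E18 it was 837 to 2356. The part of these control differences in the age comparisons was not tested.

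**Figure D1:**
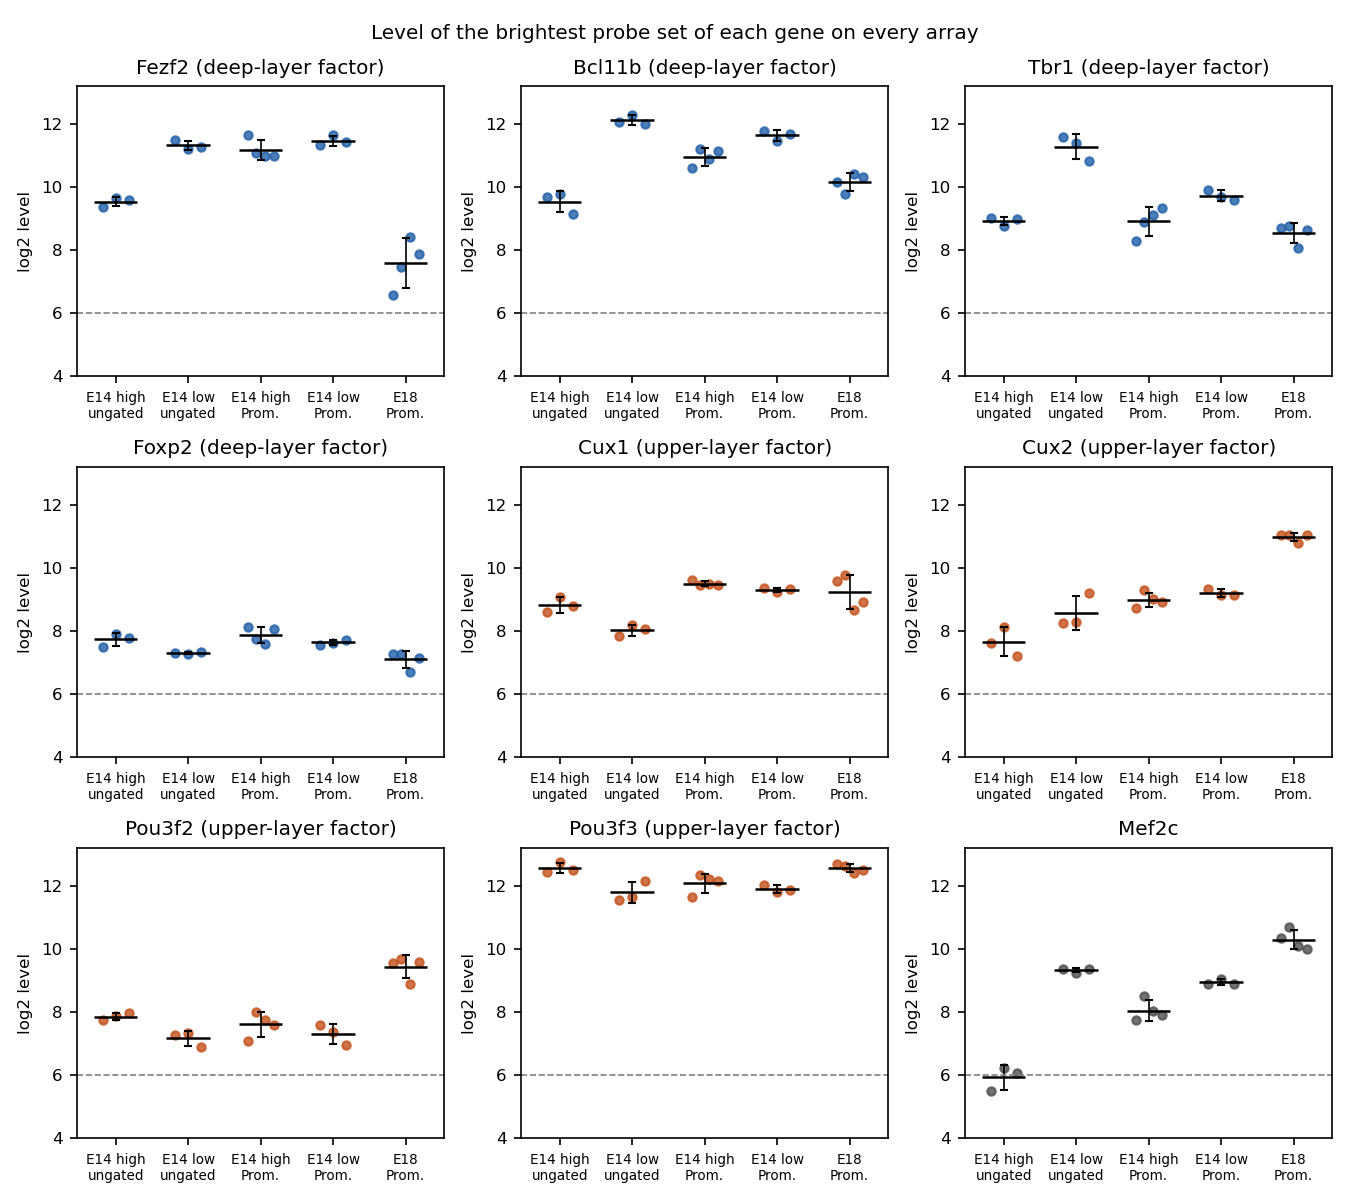
Level of the brightest probe set of each gene on every array (points; log2 of intensity plus 16, quantile normalised), with the group mean (bar) and SD (whiskers) for E14 GFP-high and GFP-low cells, ungated or Prominin-selected (Prom.), and E18 GFP-positive Prominin-selected cells; the dashed line is the background level of 6.0. Fezf2 was lowest at E18, at 6.57 to 8.42, while Cux2, Pou3f2 and Mef2c were highest there, at 10.78 to 11.06, 8.89 to 9.70 and 10.01 to 10.71.

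The first question was how the layer factors differed between the ages in Prominin-selected cells. Against E14 GFP-high cells, Fezf2 and some or most probe sets of Bcl11b and Foxp2 were lower at E18, some of Cux1, Cux2 and Pou3f2 and all of Mef2c were higher, and Tbr1 and Pou3f3 did not pass the test. Of the 12 deep-layer probe sets 8 fell and 0 rose, with a median difference of -0.79; of the 17 upper-layer probe sets 7 rose and 0 fell, with a median of 0.47 and 3 negative differences; and all 5 Mef2c probe sets rose, with a median of 2.84. Over all 45037 probe sets tested, 22% were called changed (limma, adjusted p under 0.05), 10.8% higher and 11.2% lower, with a median of -0.02. When array medians were set equal in place of quantile normalisation the split moved from 12 members higher and 8 lower to 10 higher and 11 lower, with 1 upper-layer probe set among the lower and the median over all probe sets at -0.18; with values as deposited it was 13 and 8, with that median at 0.10. Fewer cells of a type and less RNA per cell cannot be told apart in these sorted samples.

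Fezf2 showed the largest fall among the members. Its level (1418790_at) was 11.63, 11.08, 10.99 and 10.99 on the GFP-high arrays, 11.34, 11.65 and 11.41 on the GFP-low arrays, and 6.57, 7.47, 8.42 and 7.89 at E18. The highest E18 array lay below every Prominin-selected E14 array. Such separation from the GFP-high arrays, with E18 lower, held for 5928 of all 45037 probe sets, so it is not particular to the members. For Fezf2 the difference was -3.59 ± 0.32 (SE) against GFP-high cells, a 12.0-fold fall (limma, adjusted p = 8.62e-06). Against GFP-low cells it was -3.88 ± 0.34, a 14.7-fold fall (adjusted p = 2.02e-05). The same E18 arrays serve in both comparisons, so these are not independent.

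Bcl11b, which acts downstream of Fezf2 in layer V neurons, fell on 2 of its 4 probe sets against GFP-high cells. On 1450339_a_at the level was 12.35, 11.24, 10.54 and 10.61 in GFP-high cells and 8.81, 8.83, 9.25 and 8.78 at E18, with no overlap, a difference of -2.26 ± 0.34 (4.81-fold, adjusted p = 0.00045). On the brightest probe set, 1435227_at, E18 arrays ran from 9.78 to 10.41 and GFP-high arrays from 10.59 to 11.19, a difference of -0.78 ± 0.19 (1.72-fold, adjusted p = 0.00962). The other 2 gave -0.79 ± 0.39 (1438784_at, adjusted p = 0.186) and -0.49 ± 0.19 (1452966_at, adjusted p = 0.0885), and their groups overlapped. With the Gapdh difference as a covariate 1435227_at was -0.70 (adjusted p = 0.101). Against ungated GFP-high cells 1450339_a_at gave -0.27 ± 0.34 (adjusted p = 0.612).

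Tbr1 did not pass the test against GFP-high cells. Its level (1416711_at) was 8.29, 8.90, 9.12 and 9.34 in GFP-high cells and 8.68, 8.78, 8.07 and 8.64 at E18, a difference of -0.37 ± 0.23 with overlapping groups (adjusted p = 0.315). In GFP-low cells it was 9.91, 9.68 and 9.58, above all E18 arrays, and the fall to E18 was -1.18 ± 0.25 (2.27-fold, adjusted p = 0.00668). With the Gapdh difference as a covariate the second value was -0.70 (adjusted p = 0.256).

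Foxp2 fell on 5 of its 6 probe sets against GFP-high cells, by 0.78 to 0.90 on the log2 scale. The brightest, 1438232_at, was 8.13, 7.74, 7.60 and 8.07 in GFP-high cells and 7.28, 7.28, 6.72 and 7.14 at E18, without overlap (-0.78 ± 0.18, 1.72-fold, adjusted p = 0.00689). Probe set 1438231_at ran from 7.74 to 8.14 in GFP-high cells and from 6.87 to 7.28 at E18 (-0.90 ± 0.18, adjusted p = 0.00328), and 1440108_at from 6.85 to 7.47 and from 6.06 to 6.63 (-0.89 ± 0.19, adjusted p = 0.00457). The 2 others called, 1422014_at and 1441365_at, were at or below background in both groups, so no fold is given for them. The sixth, 1458191_at, gave -0.30 ± 0.26. With the Gapdh difference as a covariate 3 of the 5 calls were lost, those of 1438232_at (-0.78, adjusted p = 0.0569), 1438231_at (-0.72, adjusted p = 0.0687) and 1422014_at (-0.97, adjusted p = 0.0507).

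Cux2 rose on 2 of its 3 probe sets in both comparisons. Cux2 1447500_at was 8.72, 9.29, 9.01 and 8.92 in GFP-high cells, 9.33, 9.15 and 9.13 in GFP-low cells and 11.03, 11.05, 10.78 and 11.06 at E18. Every E18 array was above every E14 array, ungated ones included. The rise was 2.00 ± 0.16 against GFP-high cells (3.99-fold, adjusted p = 3.78e-06) and 1.77 ± 0.17 against GFP-low cells (3.42-fold, adjusted p = 3.21e-05).

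The other Cux2 probe sets gave smaller values. Probe set 1447821_at rose by 0.68 ± 0.23 against GFP-high cells (adjusted p = 0.0465), but leaving out any 1 of 7 arrays, the 4 E18 arrays and GFP-high replicates 2, 3 and 4, gave 0.62 to 0.70 with adjusted p of 0.0743 to 0.110. Against GFP-low cells it rose by 0.86 ± 0.24 (adjusted p = 0.0295), with the call lost without E18 replicate 2 (0.87), 4 (0.88) or 5 (0.81) or GFP-low replicate 3 (0.52). With the Gapdh difference as a covariate its values were 0.30 (adjusted p = 0.54) and 0.37 (adjusted p = 0.579). Probe set 1450181_at did not pass, at 0.17 ± 0.20 and 0.12 ± 0.21.

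Pou3f2 1453478_at was 7.08, 8.01, 7.74 and 7.60 in GFP-high cells, 7.60, 7.36 and 6.97 in GFP-low cells and 9.56, 9.70, 8.89 and 9.58 at E18, again with all E18 arrays on top. It rose by 1.82 ± 0.24 against GFP-high cells (3.53-fold, adjusted p = 0.000157) and by 2.12 ± 0.26 against GFP-low cells (4.34-fold, adjusted p = 0.000176). On 1457734_at the rises were 1.59 ± 0.27 (3.01-fold) and 1.88 ± 0.29 (3.68-fold). On 1450831_at the difference was 0.38 ± 0.17 against GFP-high cells (adjusted p = 0.145) and 0.92 ± 0.19 against GFP-low cells (1.89-fold, adjusted p = 0.0049).

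Cux1 differed by probe set. On 1437431_at the level was 5.94, 6.19, 5.93 and 5.58 in GFP-high cells, a mean at background, and 9.01, 8.38, 9.27 and 8.48 at E18, a log2 difference of 2.87 ± 0.21 (adjusted p = 2.44e-06). On 1441956_s_at the 4 GFP-high arrays lay between 6.88 and 7.06 and the E18 arrays between 8.84 and 9.12, a rise of 2.00 ± 0.19 (4.01-fold, adjusted p = 1.41e-05), and 1434683_at rose by 0.58 ± 0.14 (1.49-fold, adjusted p = 0.00918; 0.57 and adjusted p = 0.0647 with the Gapdh covariate). The brightest Cux1 probe set, 1451435_at, did not pass: it was 9.61, 9.46, 9.50 and 9.45 in GFP-high cells and 9.58, 9.78, 8.67 and 8.91 at E18 (-0.27 ± 0.22, adjusted p = 0.47). The remaining 5 Cux1 probe sets did not pass either; of these 1425611_a_at gave 1.10 ± 0.37 (adjusted p = 0.0502), from a mean below background at E14. Over the 17 arrays the correlations among the 9 Cux1 probe sets ran from -0.51 to 0.94.

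Pou3f3 was high in every group on 1435197_at, at 11.65, 12.33, 12.21 and 12.17 in GFP-high cells, 12.04, 11.79 and 11.87 in GFP-low cells and 12.71, 12.64, 12.42 and 12.49 at E18. The E18 arrays lay above both Prominin-selected E14 groups, as they did for 12.3% (GFP-high) and 12.7% (GFP-low) of all probe sets. The difference was 0.47 ± 0.17 against GFP-high cells, which did not pass (adjusted p = 0.0683), and 0.66 ± 0.19 against GFP-low cells (1.58-fold, adjusted p = 0.0276). The latter call was lost without E18 replicate 2 (0.61) or 3 (0.64) or GFP-low replicate 2 (0.61) or 3 (0.65). The other probe set, 1422331_at, was at or below background in all 3 Prominin-selected groups.

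Mef2c rose on all 5 probe sets in both comparisons. On 1421027_a_at the level was 7.74, 8.50, 8.02 and 7.90 in GFP-high cells, 8.90, 9.05 and 8.89 in GFP-low cells and 10.36, 10.71, 10.11 and 10.01 at E18, 3 groups with no overlap. The rise was 2.25 ± 0.20 against GFP-high cells (4.77-fold, adjusted p = 8.7e-06) and 1.35 ± 0.22 against GFP-low cells (2.55-fold, adjusted p = 0.00113). The 5 probe sets rose by 1.97 to 3.33 and by 1.35 to 2.92, and their pairwise correlations over the 17 arrays were 0.82 to 0.97. The rise of 1421028_a_at against GFP-low cells (1.35 ± 0.34, adjusted p = 0.0171) was not called without E18 replicate 2 (1.17) or GFP-low replicate 3 (1.10).

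**Figure D2:**
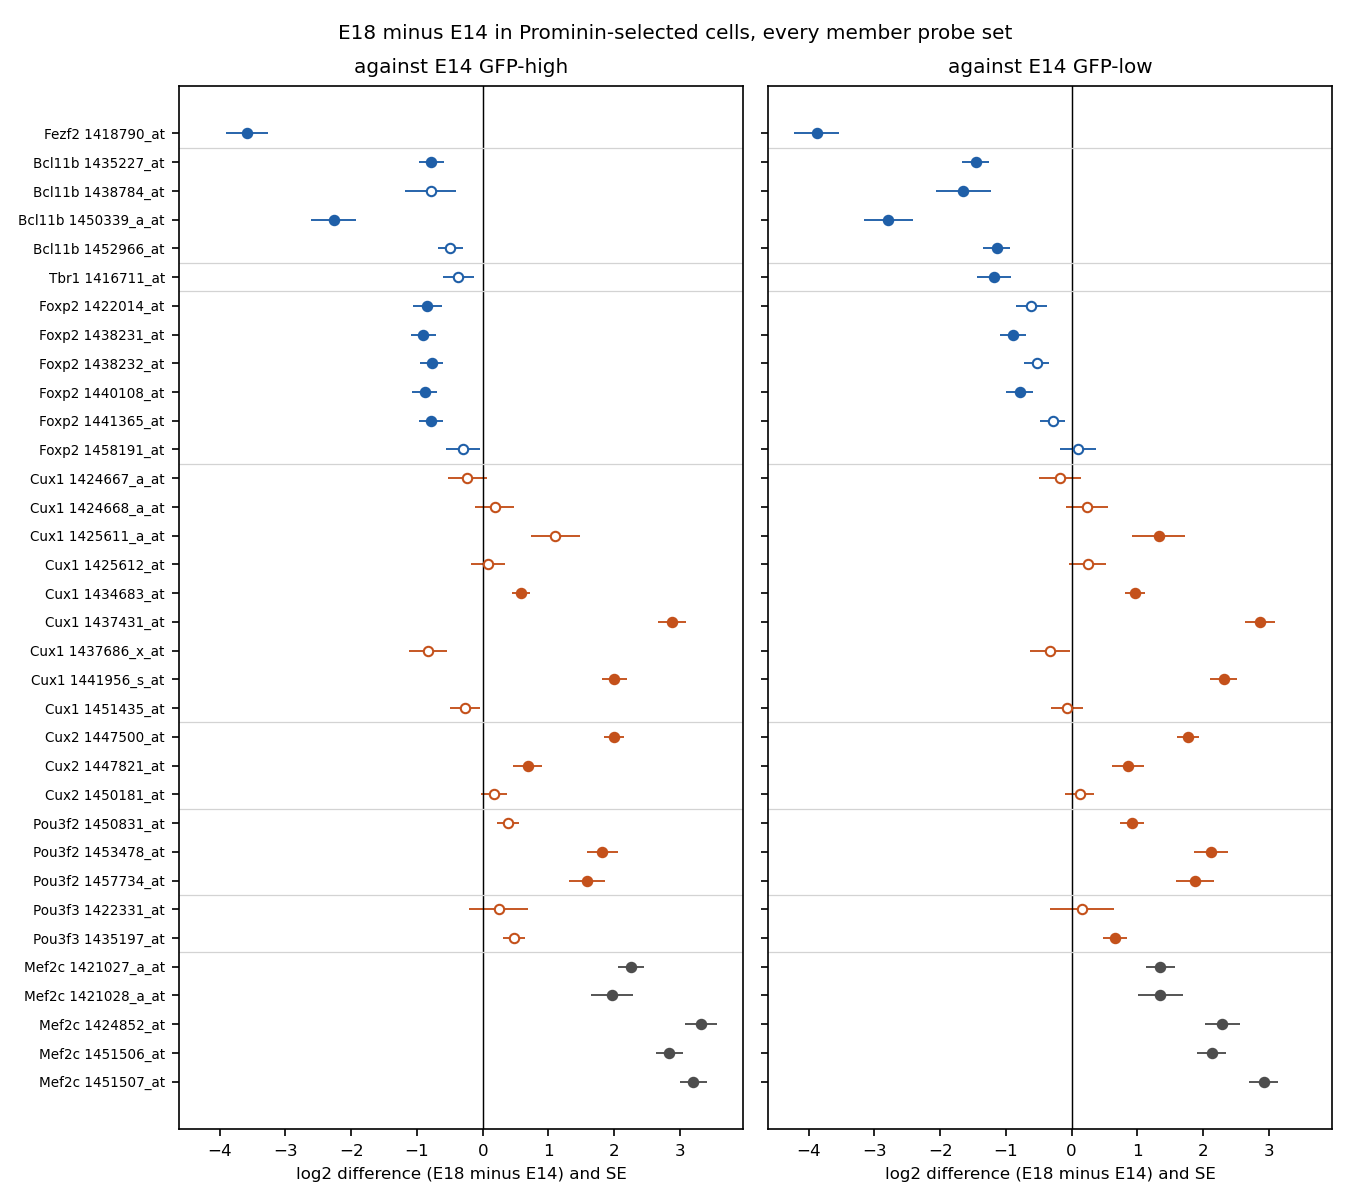
Log2 difference E18 minus E14 with its SE for each of the 34 probe sets in Prominin-selected cells, against E14 GFP-high (left, n = 4 and 4) and E14 GFP-low (right, n = 4 and 3); blue deep-layer, orange upper-layer, grey Mef2c, filled where limma's adjusted p is under 0.05 and open otherwise. Filled deep-layer points lie left of 0 and filled upper-layer and Mef2c points right of it in both panels.

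Against E14 GFP-low cells, 8 deep-layer probe sets fell and 0 rose (median -1.01), 10 upper-layer probe sets rose and 0 fell (median 0.86), and the 5 of Mef2c rose (median 2.13). Over all probe sets 16.4% were called, 8.43% higher and 7.96% lower, with a median of -0.04. E18 and GFP-low arrays did not overlap for 12.7% of all probe sets with E18 higher and 14.2% with E18 lower. All 4 Bcl11b probe sets fell, by 1.14 to 2.79, as did Fezf2, Tbr1 and 2 of the 6 Foxp2 probe sets (1438231_at by 0.89 and 1440108_at by 0.79). Cux1 rose on 1437431_at (2.87), 1441956_s_at (2.31), 1425611_a_at (1.32) and 1434683_at (0.96); the GFP-low means of 1437431_at (5.92) and 1425611_a_at (5.73) were below background, so no fold is given for them. Calls were lost for Bcl11b 1438784_at without GFP-low replicate 1 (-1.54) or 2 (-1.65), for Foxp2 1440108_at without E18 replicate 4 (-0.71) or GFP-low replicate 1 (-0.71), and for Cux1 1425611_a_at without any of E18 replicates 2, 4 and 5 (1.09, 1.25 and 1.43) and GFP-low replicates 2 and 3 (1.47 and 0.97). With the Gapdh difference as a covariate 14 members were called, 11 higher and 3 lower, against 15 higher and 8 lower without it. The share of all probe sets called in that fit is not given here. Whether the loss of calls is particular to the members therefore cannot be read from these counts. The calls lost were those of Tbr1, Bcl11b 1438784_at and 1452966_at, both Foxp2 probe sets, Cux1 1425611_a_at, Cux2 1447821_at, Pou3f2 1450831_at and Mef2c 1421028_a_at.

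The deep-layer calls at E18 depended on which E14 cells they were made against. Set against ungated in place of Prominin-selected GFP-high cells, a comparison added after the data had been seen, 3 of the 12 deep-layer probe sets were lower and 1 higher, 8 of the 17 upper-layer probe sets were higher and 1 lower, and the 5 of Mef2c were higher, with 29.3% of all probe sets called. Bcl11b 1435227_at was 0.64 ± 0.21 higher at E18 (adjusted p = 0.0294) and Foxp2 1438231_at gave 0.33 ± 0.26 (adjusted p = 0.38), both reversed in sign. The falls of Bcl11b 1450339_a_at (-0.27, adjusted p = 0.612), Foxp2 1440108_at (-0.41, adjusted p = 0.147) and Foxp2 1441365_at (-0.35, adjusted p = 0.441) were no longer called. Fezf2 still fell, by 1.95 ± 0.31, Cux2 1447500_at rose by 3.32 ± 0.24 and Pou3f2 1453478_at by 1.57 ± 0.24. Against ungated GFP-low cells 6 deep-layer probe sets were lower and 2 higher, 10 upper-layer probe sets higher and 1 lower, and 4 of Mef2c higher, with 22.1% of all probe sets called. Foxp2 1440108_at (-0.34, adjusted p = 0.264), Cux1 1425611_a_at (0.05, adjusted p = 0.942) and Mef2c 1421028_a_at (0.15, adjusted p = 0.8) were no longer called. Foxp2 1438231_at was 0.89 ± 0.26 higher (adjusted p = 0.0179), while Tbr1 fell by 2.73 ± 0.25 and Bcl11b 1435227_at fell by 1.94 ± 0.21. The labelling kit differs between these ungated arrays and the E18 arrays, apart from ungated GFP-high replicate 1.

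Other genes of the same layers, from lists drawn up with the members, were counted in the same comparisons. Of 11 other deep-layer genes measured, each by its brightest probe set, 6 were lower at E18 than in E14 GFP-high cells and 0 higher (median -0.56), and 7 were lower than in GFP-low cells and 0 higher (median -0.95). Otx1, a homeodomain factor of layer V and of progenitors, fell by 1.90 ± 0.19 to a level at background, Nr4a2, a nuclear receptor of the subplate, fell by 1.13 ± 0.14, and Sox5, which acts in the sequence of deep-layer neuron production, fell by 2.27 ± 0.30 (adjusted p = 0.000177), all against GFP-high cells. Against GFP-low cells Sox5 fell by 2.77 ± 0.33, Tle4, a corepressor of corticothalamic neurons, by 1.21 ± 0.15, and Pcp4 by 1.24 ± 0.18.

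Of 10 other upper-layer genes 6 were higher at E18 than in GFP-high cells and 0 lower (median 0.88), and 5 were higher and 1 lower than in GFP-low cells (median 0.64). Against GFP-high cells Pou3f1, a POU-domain relative of Pou3f2, rose by 1.10 ± 0.16, Lmo4, a LIM-domain cofactor, by 1.56 ± 0.24, and Unc5d, a netrin receptor, by 0.90 ± 0.16. Against GFP-low cells Pou3f1 rose by 1.04 ± 0.18 and Lmo4 by 1.47 ± 0.26, while Plxnd1, a semaphorin receptor, fell by 1.62 ± 0.28 to a level at background.

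**Figure D3:**
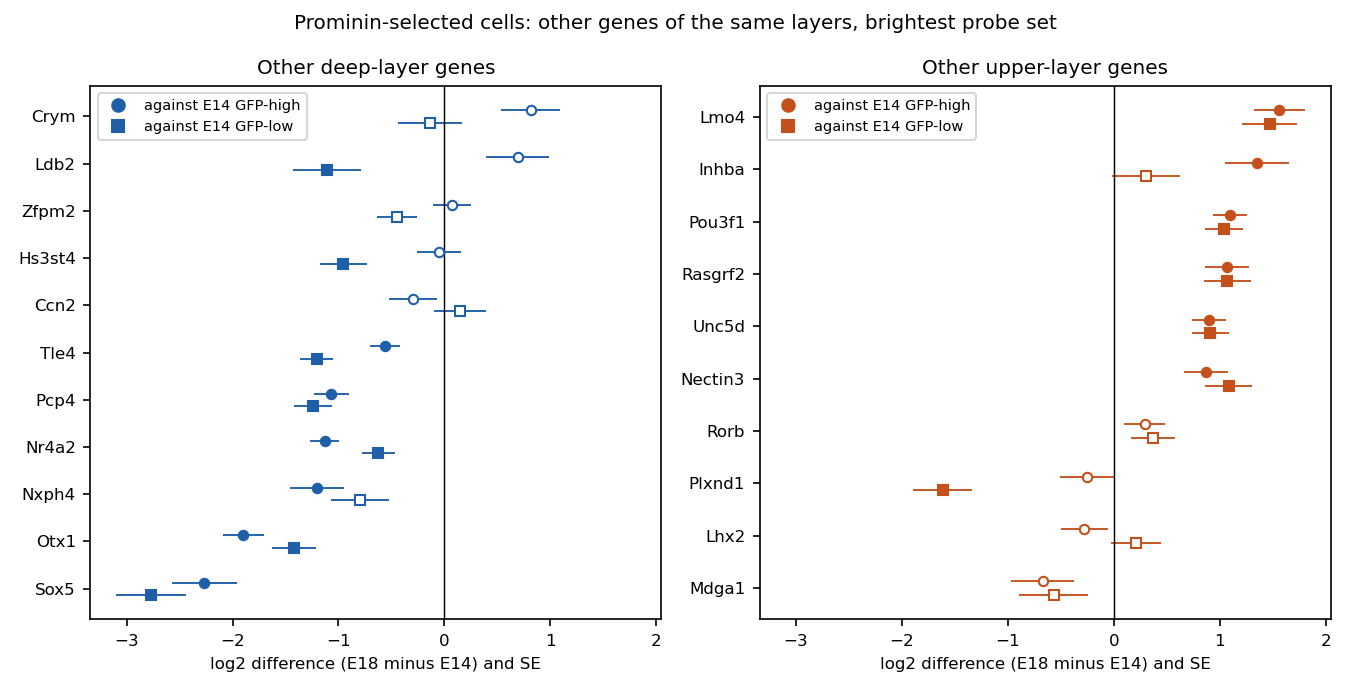
Log2 difference E18 minus E14 with its SE in Prominin-selected cells for the brightest probe set of 11 other deep-layer genes (left) and 10 other upper-layer genes (right), against E14 GFP-high (circles) and GFP-low (squares), filled where limma's adjusted p is under 0.05. The filled points lie left of 0 among the deep-layer genes and right of 0 among the upper-layer genes except Plxnd1.

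Markers of other cell types moved between the same groups. All 6 interneuron genes rose at E18 in both comparisons (Dlx1, a homeobox gene of ventrally born interneurons, by 4.04 ± 0.23 and 3.33 ± 0.25), and their summed intensity was 282 to 501 in GFP-high cells, 411 to 668 in GFP-low cells and 2880 to 3427 at E18. The sum of 15 genes of postmitotic neurons was 13578 to 17423, 24347 to 26679 and 28710 to 34326 in the same order. Of these 15, 11 rose and 1 fell at E18 against GFP-high cells, and 4 rose and 3 fell against GFP-low cells. Tubb3, a neuronal tubulin, was 1.39 ± 0.18 and 0.98 ± 0.20 higher, while Neurod1, a basic helix-loop-helix factor of new neurons, was lower (-0.95 and -0.88), as were the neurofilament-type genes Ina (-0.77) and Nefm (-0.66) against GFP-low cells. Of the 5 basal progenitor genes 4 fell against GFP-high cells and 3 against GFP-low cells, with Eomes (Tbr2) down by 2.26 ± 0.17 and 1.70 ± 0.18. Of the 10 radial glia genes 6 fell and 2 rose, and 4 fell and 2 rose, with Pax6 down by 1.67 ± 0.18 and 0.82 ± 0.19 and Prom1 by 2.09 ± 0.14 and 1.35 ± 0.15. The 2 that rose were Fabp7 (1.35 ± 0.18 and 1.75 ± 0.19) and Slc1a3 (0.95 ± 0.25 and 1.33 ± 0.27). The sum of the 10 radial glia genes was 11381 to 16536 in GFP-high cells, 8122 to 9189 in GFP-low cells and 9697 to 13841 at E18. The sum of 6 Cajal-Retzius genes was 3456 to 4712 in GFP-low cells, 548 to 717 in GFP-high cells and 839 to 1655 at E18. At E18 0 of 6 meningeal and pericyte genes, 0 of 7 striatal neuron genes, 1 of 6 endothelial genes and 1 of 6 microglial genes were above background. The part of these cell types in the differences of the layer factors was not tested.

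The second question was whether the layer factors differed between GFP-high and GFP-low cells at E14. In Prominin-selected cells limma called 0 of the 34 probe sets, with 9 at an unadjusted p under 0.05 and 0.342% of all probe sets called (0.0622% higher and 0.28% lower in GFP-high cells). The lowest adjusted p among the members were those of Mef2c 1421027_a_at (-0.90 ± 0.22, adjusted p = 0.102) and 1424852_at (-1.04 ± 0.26, adjusted p = 0.123). For both, every GFP-high array lay below every GFP-low array, which held for 5.79% of all probe sets. Tbr1 gave -0.81 ± 0.25 (adjusted p = 0.222) and Bcl11b 1435227_at -0.68 ± 0.21 (adjusted p = 0.207), also without overlap, and Fezf2 -0.29 ± 0.34 with overlap. Of the 34 probe sets 7 were lower in GFP-high cells without overlap and 4 higher, the latter against 4.82% of all probe sets. Among the 4 were Pou3f2 1450831_at (7.57 to 7.73 against 6.96 to 7.24) and Cux1 1434683_at (8.21 to 8.38 against 7.81 to 7.93).

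In ungated cells 13 of the 34 were called, 11 lower and 2 higher in GFP-high cells, against 8.75% of all probe sets (4.53% lower and 4.23% higher). Fezf2 was 9.36, 9.66 and 9.59 in GFP-high and 11.48, 11.20 and 11.28 in GFP-low cells, a fall of 1.78 ± 0.20 (3.44-fold, adjusted p = 0.00258). Bcl11b 1435227_at was 9.67, 9.76 and 9.15 against 12.06, 12.29 and 12.00 (-2.59 ± 0.24, 6.01-fold, adjusted p = 0.00141), and the 4 Bcl11b probe sets fell by 2.22 to 2.69. Tbr1 was 9.02, 8.77 and 8.99 against 11.59, 11.40 and 10.84 (-2.35 ± 0.25, 5.10-fold, adjusted p = 0.00218). None of these groups overlapped, which held in that direction for 13.4% of all probe sets.

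Mef2c was at or below background in ungated GFP-high cells on all 5 probe sets. On 1421027_a_at it was 5.49, 6.24 and 6.07 there and 9.36, 9.25 and 9.36 in ungated GFP-low cells, a log2 difference of -3.39 ± 0.25 (adjusted p = 0.00119), and over the 5 probe sets the difference was -2.34 to -3.96. None of the Foxp2, Cux2 and Pou3f2 probe sets passed. The 2 members higher in GFP-high cells were Cux1 1434683_at (0.97 ± 0.20, adjusted p = 0.0259) and Pou3f3 1422331_at (1.26 ± 0.24, adjusted p = 0.0193). The Cux1 call was lost on leaving out any 1 array but GFP-low replicate 3 (0.89 to 1.08). The Pou3f3 call was lost without GFP-high replicate 1 (1.30), 2 (1.15) or 3 (1.31). It was also lost with the kit as a covariate (1.30, adjusted p = 0.138), which gives the same difference as leaving out GFP-high replicate 1.

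**Figure D4:**
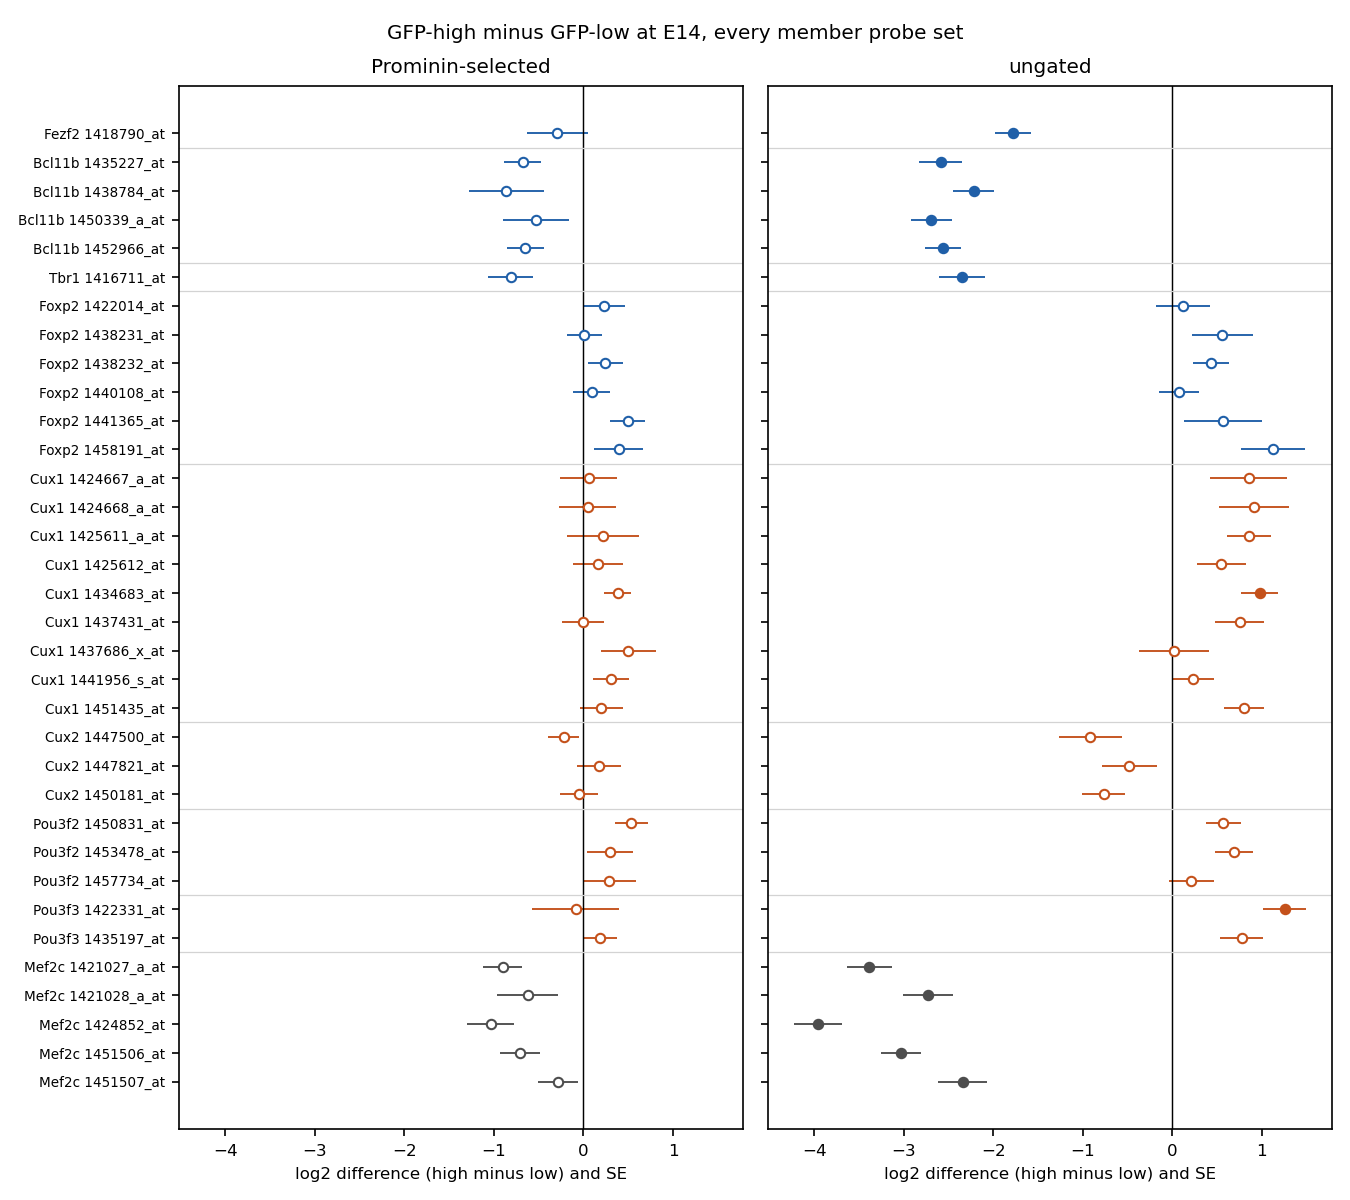
Log2 difference at E14, GFP-high cells minus GFP-low cells, and its SE for the 34 probe sets in Prominin-selected (left, n = 4 and 3) and ungated cells (right, n = 3 and 3); colours and filling as in the plot of age differences. No point is filled on the left; on the right Fezf2, Bcl11b, Tbr1 and Mef2c are filled and lie between -1.78 and -3.96.

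The GFP difference itself differed with the gate for 9 probe sets, all less negative in Prominin-selected cells, against 3.57% of all probe sets called in this test, 1.83% in that direction and 1.74% in the other. They were Bcl11b 1435227_at (1.91 ± 0.31, adjusted p = 0.00206), 1450339_a_at (2.17 ± 0.49) and 1452966_at (1.91 ± 0.29), Tbr1 (1.54 ± 0.37, adjusted p = 0.0246) and the 5 of Mef2c (2.06 to 2.92). Fezf2 gave 1.49 ± 0.45 and did not pass (adjusted p = 0.0815). Calls were lost for Tbr1 without GFP-low selected replicate 2 (1.52) or 3 (1.47), GFP-high selected replicate 3 (1.47), ungated GFP-low replicate 1 (1.38) or 2 (1.48) or ungated GFP-high replicate 2 (1.46), for Bcl11b 1450339_a_at without GFP-low selected replicate 1 (2.03) or 3 (2.07), ungated GFP-high replicate 1 (2.03) or ungated GFP-low replicate 1 (2.07), and for Mef2c 1421028_a_at without GFP-low selected replicate 3 (1.86), ungated GFP-high replicate 1 (1.85) or ungated GFP-low replicate 1 (2.01). Neuron genes moved the same way: of the 15, 14 were lower in GFP-high cells without the gate and 5 with it, and the difference between the contrasts was called for 10, among them Mapt (3.65) and Stmn2 (3.10). With the kit as a covariate the calls of Bcl11b 1450339_a_at (2.03, adjusted p = 0.0535) and Mef2c 1421028_a_at (1.85, adjusted p = 0.0568) were lost. The kit varies within a group only in ungated GFP-high cells, so here the covariate amounts to leaving out ungated GFP-high replicate 1 and is no second check. Of the 10 radial glia genes 9 were higher in GFP-high cells without the gate, Pax6 by 3.07 ± 0.31, and 0 with it, and Pax6 gave 0.85 ± 0.19 there (adjusted p = 0.0807).

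Prominin-selected cells were also set against ungated cells of the same GFP level, using the same arrays. Within GFP-high cells 14 members were called, 12 higher and 2 lower in selected cells, with 18.4% of all probe sets called (9.59% higher and 8.84% lower). Fezf2 was 1.64 ± 0.31 higher (3.11-fold, adjusted p = 0.00112), Bcl11b 1435227_at 1.43 ± 0.21, Cux2 1447500_at 1.32 ± 0.24 and Mef2c 1421027_a_at 2.11 ± 0.22, the last from a level at background. Pou3f3 1422331_at, at 8.45, 8.76 and 8.43 in ungated cells and 4.69 to 5.84 in selected cells, fell by 3.23 ± 0.43 to background, while Pou3f3 1435197_at gave -0.48 ± 0.20 and did not pass (adjusted p = 0.11). Calls were lost for Pou3f2 1457734_at (0.99) without selected replicate 3 (0.91) or ungated replicate 3 (0.84), and for Cux1 1441956_s_at (0.77) without ungated replicate 1 (0.70) or 3 (0.69). The kit differs for 2 of the 3 ungated arrays, and with it as a covariate 10 members were called: Foxp2 1438231_at (1.12, adjusted p = 0.0827), Cux1 1441956_s_at (0.89, adjusted p = 0.0898), Cux2 1450181_at (1.09, adjusted p = 0.0517) and Pou3f2 1457734_at (0.82, adjusted p = 0.255) were not. The kit covariate rests on ungated GFP-high replicate 1, the only ungated array labelled with MessageAmp. The Gapdh difference was 0.54 to 1.71 in selected and -0.21 to -0.19 in ungated GFP-high cells, and its part in the result was not tested.

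Within GFP-low cells 11 members were called, 4 higher and 7 lower in selected cells, with 16.4% of all probe sets called (8.44% higher and 7.94% lower); with array medians set equal 2 were higher and 8 lower. Tbr1 fell by 1.55 ± 0.27 (2.93-fold, adjusted p = 0.000805), Bcl11b 1452966_at by 1.07 ± 0.21 and Mef2c 1451507_at by 1.80 ± 0.26, while Foxp2 1438231_at rose by 1.78 ± 0.27 (3.43-fold, adjusted p = 0.000324) and Cux1 1451435_at by 1.28 ± 0.25 (2.43-fold). The kit differs between these groups on every array; with the kit as a covariate, which rests on the 1 ungated GFP-high array labelled with MessageAmp, 1 member was called, Mef2c 1451507_at (-2.53). Calls were lost on leaving out single arrays for Cux1 1425611_a_at (-0.92 to -1.35 without selected replicate 3 or ungated replicate 1 or 2), Mef2c 1421028_a_at (-0.95 to -1.20 without the same 3 arrays), and, without any of selected replicates 1 and 3 and ungated replicates 1 and 2, for Cux1 1441956_s_at (0.47 to 0.65) and Pou3f2 1457734_at (0.68 to 0.94). Prom1 was 1.56 ± 0.18 higher in selected than in ungated GFP-low cells, and 0.14 ± 0.17 in GFP-high cells (adjusted p = 0.639).

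The order of the 5 groups differed between the genes, taken by the mean of each brightest probe set, and neighbours whose arrays overlapped are named together. For Fezf2, both GFP-low groups and the selected GFP-high group came first together, then ungated GFP-high cells and last E18 cells. For Bcl11b no neighbours overlapped: ungated GFP-low cells (12.12 ± 0.16, SD, n = 3) were highest and ungated GFP-high cells (9.53 ± 0.33, n = 3) lowest, with E18 cells (10.17 ± 0.28, n = 4) next above them. For Tbr1 ungated and then selected GFP-low cells came first, and the other 3 groups overlapped. Cux2 and Pou3f2 had E18 cells on top (10.98 ± 0.13 and 9.43 ± 0.37, n = 4), clear of the next group. For Cux1 selected GFP-high cells came first (9.50 ± 0.07, n = 4) and ungated GFP-low cells last (8.03 ± 0.18, n = 3), while for Pou3f3 ungated GFP-high and E18 cells overlapped at the top. Mef2c fell into 5 groups without overlap, from E18 cells (10.30 ± 0.31, n = 4) to ungated GFP-high cells (5.94 ± 0.39, n = 3).

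The genes whose brightest probe sets were most like the members' in level over the 17 arrays, among 10690 genes, were found by Pearson's r, which reflects the 5 groups as well as the arrays and carries no test. Mef2c was most like Dnm3 (r = 0.988), which encodes a dynamin, and Ndrg4 (0.986), and Cux2 like Ptprd (0.982), a receptor tyrosine phosphatase. Fezf2 was most like Ppp1r14a (0.964) and Inf2 (0.964), Tbr1 like Sema4d (0.947) and Nfe2l3 (0.945), Pou3f3 like Nfxl1 (0.945) and Nol7 (0.934), and Bcl11b like Prickle1 (0.940), a planar cell polarity gene, and 4833418N02Rik (0.937). The closest to Cux1 were Cep43 (0.939) and Zmym5 (0.901), to Foxp2 Zcchc3 (0.936) and Shmt2 (0.912), to Pou3f2 Fam120c (0.931) and Fbxw7 (0.930), and the second for Cux2 was 6330415B21Rik (0.977). Between members the lowest value was that of Fezf2 with Pou3f2 (-0.93) and the highest that of Cux2 with Mef2c (0.83).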

How the data were processed

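Sorted cortical cells of 5 groups were measured on 17 Affymetrix mouse arrays. Per the labels' protocols, RNA was extracted with RNeasy columns and labelled with biotin by a MessageAmp or an Affymetrix kit. The authors deposited linear intensity values, 1 per probe set and array; the summarisation software is not given in the sources used here. On each array the mean between the 2nd and 98th percentile was 150. Of 45101 probe sets, 64 controls were left out; of the 45037 tested, 34945 had 1 gene symbol, 932 several and 9160 none in the platform annotation.

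Intensities plus 16 were put on the log2 scale and then quantile normalised. They were fitted with limma 3.58.1 (lmFit, eBayes) in R 4.3.3, with Benjamini-Hochberg adjustment over all 45037 probe sets and a threshold of 0.05. The 3 Prominin-selected groups, the ungated groups, and, for the gate and for the difference of GFP contrasts, all 17 arrays were fitted together. Tables and figures used Python 3.11.15, pandas 2.3.3 and matplotlib 3.10.9. The fits were tested on simulated data.

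All probe sets of the 9 members were reported, with the 2 genes most like each, up to 3 genes per list by lowest p past the threshold, and Pax6, Eomes, Tubb3 and Prom1; genes named beyond this rule were chosen after their values were seen. The members and lists were chosen with earlier results of these data known. The labels state no pairing, and the arrays were not treated as paired. Deviations of same-numbered arrays of different groups correlated at -0.17 to 0.05. Differently numbered arrays were not compared, so these values cannot exclude that same-numbered samples shared a sort. No 2 arrays held identical values. The number of arrays limits the precision. Alternatives covered the pseudocount, scaling, dim probe sets, 1 probe set per gene, array weights, Gapdh and kit covariates, a replicate block and leaving out each array.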

Additional observations from a re-analysis of the deposited data

Results flagged for a closer look

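Single arrays stood apart from the rest of their group in 5 of the 68 tests of a member in a group of 4 arrays; chance gives about 1 in 20. In E14 GFP-high Prominin-selected cells Fezf2 was 11.63 on replicate 1 and 10.99 to 11.08 on the others. At E18 Bcl11b 1450339_a_at was 9.25 on replicate 4 (others 8.78 to 8.83), and Cux2 1447500_at was lowest on the same array, at 10.78 (others 11.03 to 11.06). On E18 replicate 5 Cux2 1447821_at was 8.54 (others 8.33 to 8.36) and Pou3f2 1457734_at was 10.17 (others 9.02 to 9.05).

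The difference between GFP-high and GFP-low cells was itself different with and without the Prominin gate for 9 probe sets (limma, adjusted p under 0.05 for the difference of the contrasts). It was less negative in selected cells by 1.91 for Bcl11b 1435227_at, 2.17 for 1450339_a_at and 1.91 for 1452966_at, by 1.54 for Tbr1, and for Mef2c by 2.48 (1421027_a_at), 2.11 (1421028_a_at), 2.92 (1424852_at), 2.33 (1451506_at) and 2.06 (1451507_at). The labelling kit differs between most selected and ungated arrays. With the kit as a covariate 7 of the 9 were called, and Bcl11b 1450339_a_at (2.03, adjusted p = 0.0535) and Mef2c 1421028_a_at (1.85, adjusted p = 0.0568) were not. The kit varies within a group only in ungated GFP-high cells, so this fit amounts to leaving out ungated GFP-high replicate 1.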

How the results depend on the processing

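Of 90 member results called, 52 kept their call under every alternative run and 38 lost it under at least 1. Set against ungated E14 cells, an alternative added after seeing the data, 3 reversed: Bcl11b 1435227_at (0.64) and Foxp2 1438231_at (0.33) against GFP-high and Foxp2 1438231_at (0.89) against GFP-low cells. With 1 probe set per gene the members called were 6 and 7 for E18 against GFP-high and GFP-low cells, 5 for the ungated GFP difference, 5 and 2 for the gate within GFP-high and GFP-low cells and 3 for the difference of contrasts; fewer features were tested. The gate within GFP-low cells gave 6 calls with a pseudocount of 1 and 1 with the kit as a covariate, and E18 against GFP-low cells gave 14 with the Gapdh covariate. The upper-layer median against GFP-high cells was 0.19 with array medians set equal, 1.15 with 1 probe set per gene and 0.31 with the Gapdh covariate; against GFP-low cells it was 0.70 with a pseudocount of 64, 0.67 with array medians set equal, 1.22 with 1 probe set per gene and 0.69 with array weights. The deep-layer median was -0.31 against ungated GFP-high cells, and against GFP-low cells -1.32 with 1 probe set per gene, -0.76 with the Gapdh covariate and -1.32 against ungated cells. The cause was not tested. Leaving out each array gave 19 to 21 and 19 to 22 calls for the age comparisons, 0 for the gated and 11 to 14 for the ungated GFP difference, 12 to 15 and 7 to 14 for the gate and 6 to 9 for the difference of contrasts, with medians against GFP-high cells of -0.85 to -0.72 (deep) and 0.39 to 0.58 (upper) and against GFP-low cells of -1.16 to -0.90 and 0.65 to 0.92. With a replicate block, though no pairing is stated in the labels, the calls were 17, 16, 0, 11, 15, 9 and 8 in the same order. For the covariates, the pseudocount of 1 and the replicate block the share of all probe sets called is not given here. For those other alternatives, whether a change in the counts is particular to the members therefore cannot be read from them. Signal near background limits 4 of the 34 probe sets in every group.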
